A study of Mus musculus with 3 samples.

Results

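Cpa3, Cma1, Mcpt4, Tpsb2, Kit, Ms4a2, Prg2 and Epx are genes whose products serve mast cells, basophils and eosinophils, and they were measured here in mouse mandibular condyles, the bone and cartilage heads of the lower jaw that form its joint with the skull. The 8 genes were taken by symbol from a table of 26970 genes, and all 8 were found. The mice were 4 months old and of C57BL/6 background. The group WT was Dspp +/+, the group HE was heterozygous (Dspp+/-), and the group HO was homozygous for a global Dspp knockout (Dspp-/-), with Dspp+/- animals bred from Dspp-/- and C57BL/6 wild-type mice. Dspp encodes dentin sialophosphoprotein, a matrix protein of mineralized tissue, and as the knockout was global the loss was not limited to 1 cell type. The condyles were dissected with cartilage and underlying bone still joined, so marrow spaces of that bone could be part of each sample. Each genotype had 1 library, made from pooled tissue of 3 animals for WT and for Dspp+/-, while the number of animals behind the Dspp-/- library was not stated. With no replicates, each difference below is a difference between single libraries, and no p-value is given. The targeted gene was not analysed here, so it gives no check of the labels.

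Mast cells, basophils and eosinophils are granule-bearing white blood cells that arise in the bone marrow. Mast cells leave the marrow as progenitors and ripen in connective tissue, where they store chymases (Cma1, Mcpt4), tryptases (Tpsb2) and carboxypeptidase A (Cpa3), and where they depend on KIT, the receptor of stem cell factor. Basophils and eosinophils ripen in the marrow and circulate. Basophils share with mast cells the IgE receptor, whose beta chain is the product of Ms4a2, and the histamine-forming enzyme, while eosinophils store major basic protein (Prg2) and eosinophil peroxidase (Epx). Kit is also active in blood progenitors and melanocytes, and Cpa3 is also active in basophils and blood progenitors, so neither marks mast cells alone.

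Promoter sequence was matched for 6 of the 8 members, and 5 are shown because they set members with large differences between the libraries (Cpa3, Ms4a2, Mcpt4, Epx) beside 1 with a small difference (Cma1). Each run holds the 250 bases before the gene's start, 5′ to 3′ on the minus strand, from RefSeq on GRCm38.p6, with capitals marking GATAA on either strand, the core sequence that GATA factors bind. The windows are chr3:20242182-20242431 for Cpa3, chr19:11623720-11623969 for Ms4a2, chr14:56062311-56062560 for Mcpt4, chr14:55944676-55944925 for Cma1 and chr11:87875537-87875786 for Epx.
Cpa3: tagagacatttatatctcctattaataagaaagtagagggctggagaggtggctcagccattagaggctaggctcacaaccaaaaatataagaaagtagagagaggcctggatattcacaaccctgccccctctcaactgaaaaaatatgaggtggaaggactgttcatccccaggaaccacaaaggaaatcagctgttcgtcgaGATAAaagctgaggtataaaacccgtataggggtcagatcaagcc
Ms4a2: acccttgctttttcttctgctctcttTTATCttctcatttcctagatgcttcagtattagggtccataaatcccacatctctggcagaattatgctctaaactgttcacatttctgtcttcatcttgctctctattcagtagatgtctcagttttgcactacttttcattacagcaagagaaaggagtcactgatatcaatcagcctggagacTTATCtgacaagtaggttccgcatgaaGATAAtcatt
Mcpt4: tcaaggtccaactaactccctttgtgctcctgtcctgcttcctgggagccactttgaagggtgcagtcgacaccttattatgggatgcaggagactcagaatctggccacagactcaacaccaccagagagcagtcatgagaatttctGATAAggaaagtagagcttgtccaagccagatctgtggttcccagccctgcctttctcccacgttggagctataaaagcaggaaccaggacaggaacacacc
Cma1: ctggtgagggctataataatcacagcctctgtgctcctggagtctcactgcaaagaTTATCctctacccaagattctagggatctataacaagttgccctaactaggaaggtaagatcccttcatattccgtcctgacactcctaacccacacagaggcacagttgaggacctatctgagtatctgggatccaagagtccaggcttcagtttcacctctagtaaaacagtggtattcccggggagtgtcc
Epx: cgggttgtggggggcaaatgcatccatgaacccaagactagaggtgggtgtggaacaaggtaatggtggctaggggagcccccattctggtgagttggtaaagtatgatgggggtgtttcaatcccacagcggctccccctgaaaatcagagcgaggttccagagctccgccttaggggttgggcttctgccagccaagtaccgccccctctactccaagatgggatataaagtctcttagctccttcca
GATAA or its reverse complement TTATC was present 1 time in the windows of Cpa3, Mcpt4 and Cma1 and 3 times in that of Ms4a2. Its first base lay at position -45 for Cpa3, at -102 for Mcpt4 and at -194 for Cma1, counted from the gene's start. Neither Epx nor Kit held it in this window. Among 32851 promoter windows of the same length, 22.6% held it. CATGTG, an E-box of the kind that MITF binds, was in none of the 6 members' windows and in 12.3% of all windows, and TTGCNNAA, a C/EBP sequence, was in none of them and in 9.56% of all. GAGGAA, an ETS core, was present 1 time in Kit and in 23.3% of all windows. All motifs were searched on both strands, none is contained in another, and a match describes sequence, not binding.

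The deposited values were read as FPKM, which is fragments scaled by exon length and by library size. Among genes with a known length and under 100 fragments, multiplying the values by exon length returned whole fragments within 0.05 of a fragment for 98.9% in each library. The depth recovered in this way was 20241576 fragments in WT, 23613621 in HE and 22253158 in HO. For a gene with 1 kilobase of exon, each fragment adds 0.0494, 0.0423 and 0.0449 FPKM in these libraries. Folds are given as ratios of FPKM with 95% Clopper-Pearson intervals, which cover counting error only, as each genotype has 1 library. Fragments copied by PCR are not independent molecules, so the intervals may be too narrow even for counting error. The libraries differed in their makeup, and WT stood apart from both mutant libraries in erythroid and mitochondrial genes. Summed FPKM of 8 erythroid genes was 904 in WT, 3757 in HE and 3637 in HO. That of 5 osteoblast genes was 9940, 2631 and 5206, with HO between WT and HE. Xist, the RNA of the inactive X chromosome, had 2 fragments in WT, 12084 in HE and 10563 in HO. The sum of 4 Y-linked genes was 36.6, 19.0 and 25.9 FPKM, so WT also differed from both mutant libraries in sex-linked genes. The labels do not give the sex of the animals, and a difference in sex cannot be told apart from genotype here. Mitochondrial genes held 25.02%, 36.9% and 37.3% of summed FPKM. The part that any of these differences had in the results below was not tested, and genotype and library cannot be told apart.

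The 2 eosinophil members, Prg2 and Epx, were 19.1 to 26.2 times as high in the mutant libraries as in WT, whereas the mast cell chymase Cma1 and tryptase Tpsb2 were within counting error of WT in both. Cpa3, Ms4a2, Kit and Mcpt4 lay between, each higher than WT in both mutant libraries with an interval above 1. A gene was called higher or lower when it changed at least 2-fold on log2(FPKM + 1), a scale that understates the change of low genes, and averaged 1 FPKM or more over the 3 libraries. By that rule Cpa3, Epx and Prg2 were called higher in HE, which is 3 of the 4 members that reached the mean, and none was called lower. Over all genes compared, 4.88% were called higher and 2.86% lower in HE, which is 636 and 373 of 13026 genes. When the libraries were rescaled to equal summed FPKM, these became 466 higher and 625 lower, and the members' calls stayed the same. In HO, Epx and Prg2 were called higher, 2 of the 4, and none lower, beside 4.05% of all genes called higher and 1.37% called lower. The median log2 ratio of those 4 members was 2.53 in HE and 2.11 in HO, beside 0.058 and 0.0070 over all genes. Cma1, Mcpt4, Tpsb2 and Ms4a2 had a mean under 1 FPKM and could not be called by this rule. Cpa3, Kit and Epx reached the mean only through the mutant libraries, so these counts and medians describe the libraries and support nothing further.

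**Figure D1:**
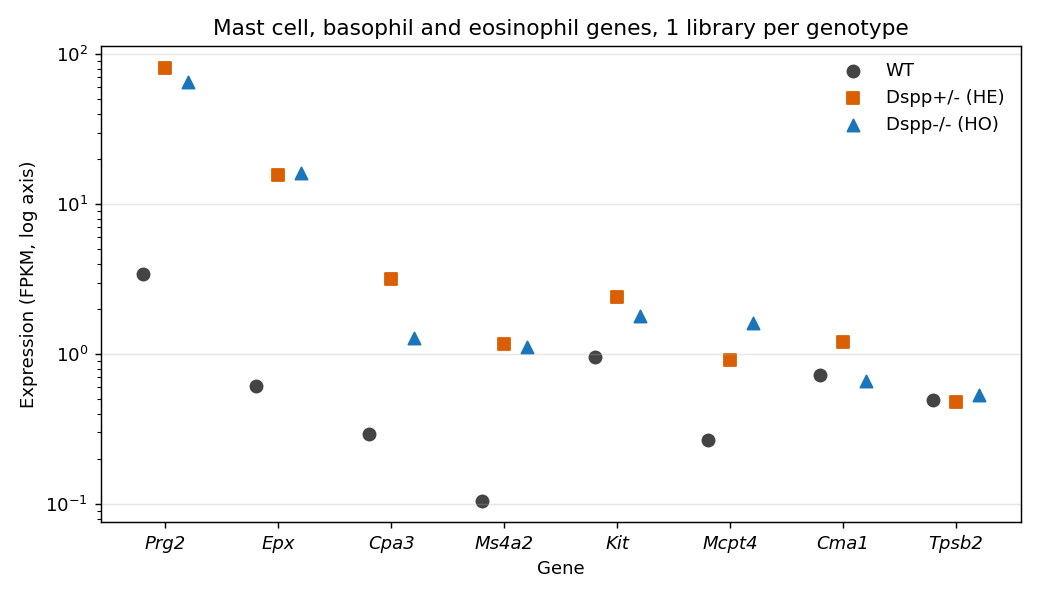
FPKM of each of the 8 genes on a log axis, with 1 point for each library (WT circle, HE square, HO triangle) and no error bar, as there are no replicates. Prg2 goes from 3.42 in WT to 81.5 and 65.3 in the mutant libraries, while the 3 points of Tpsb2 lie between 0.478 and 0.536.

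A second rule, chosen after the data were seen, took all 8 members without a pseudocount: at least 2-fold in fragments per base and depth, an interval beyond 1, and at least 10 fragments over both libraries. By it, 6 of 8 members were higher in HE (Cpa3, Epx, Kit, Mcpt4, Ms4a2 and Prg2), where 10.6% of all genes were. In HO 5 of 8 were higher (Cpa3, Epx, Mcpt4, Ms4a2 and Prg2), where 9.19% of all genes were. Both comparisons use the same WT library, so their likeness is not independent. In bulk tissue, fewer cells of a type and less RNA per cell cannot be told apart.

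Prg2 encodes major basic protein, the arginine-rich protein that forms the crystalline core of the eosinophil granule. It lies at chr2:84810805-84813976 on the plus strand, in the positions of the deposited table, which come from a build other than GRCm38. Prg2 was at 3.42 FPKM in WT (58 fragments), 81.5 in HE (1612 fragments) and 65.3 in HO (1218 fragments). It was the highest of the 8 members in every library, WT included. The fold over WT was 23.8 in HE (interval 18.3 to 31.5) and 19.1 in HO (14.7 to 25.3). Epx, at chr11:87754826-87766362 on the minus strand, encodes eosinophil peroxidase, which makes oxidants from halides. Its level was 0.614 FPKM in WT (34 fragments), 15.6 in HE (1010) and 16.1 in HO (980). Its fold was 25.5 in HE (18.1 to 37.0) and 26.2 in HO (18.6 to 38.1). Within each library the FPKM of Prg2 was 5.57 times that of Epx in WT (3.59 to 8.78), 5.21 times in HE (4.82 to 5.64) and 4.06 times in HO (3.73 to 4.42). The ratio of these granule genes thus moved by less than either level.

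**Figure D2:**
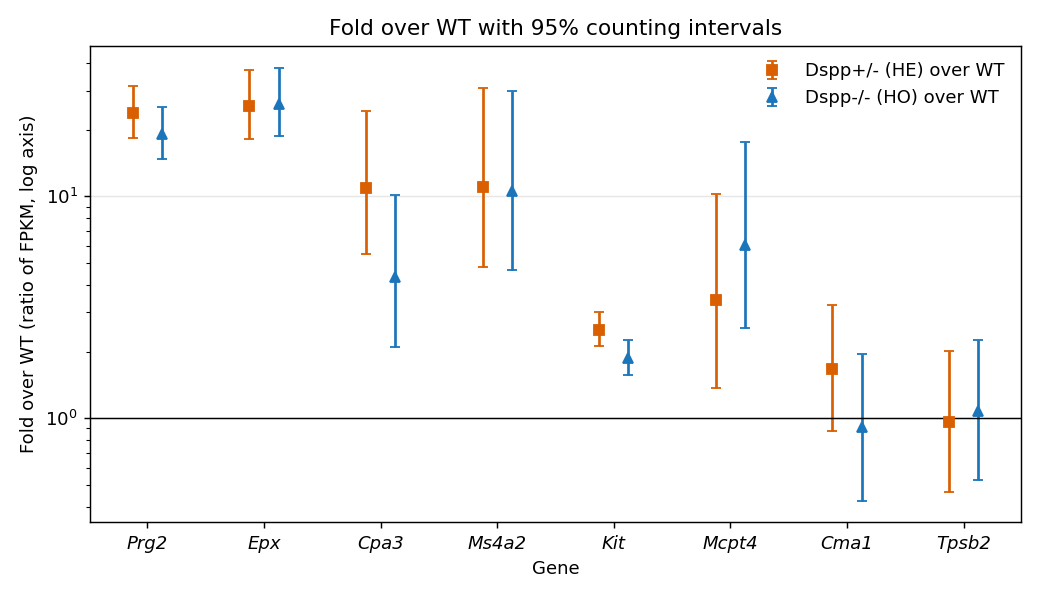
Fold over WT (ratio of FPKM, log axis) of the 8 genes in HE (squares) and HO (triangles), where bars are 95% counting intervals and the line marks 1. The intervals of Prg2, Epx, Cpa3, Ms4a2, Kit and Mcpt4 lie above 1 in both libraries, and those of Cma1 and Tpsb2 include 1 in both.

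The other eosinophil genes were taken from a list of 14, of which 13 were in the table and 11 reached the mean. Of these 11, 9 were called higher in HE and the same 9 in HO (Alox15, Cebpe, Ear1, Ear2, Ear6, Epx, Gata1, Prg2 and Prg3), with median log2 ratios of 2.87 and 2.62 and none lower. Beside this, 4.88% and 4.05% of all genes were called higher, with medians of 0.058 and 0.0070. Alox15, Prg3, Gata1, Ear1, Ear6 and Epx reached the mean only through the mutant libraries, so the filter itself favours such calls and the counts are a description. Prg3, a relative of major basic protein, had 1 fragment in WT, 81 in HE and 78 in HO, a ratio of 69.4 in HE whose interval runs from 12.1 to 2776. The eosinophil ribonucleases behaved in the same manner. The FPKM of Ear1 was 0.338 in WT, 27.7 in HE and 30.2 in HO, that of Ear2 was 2.13, 27.5 and 29.0, and that of Ear6 was 0.366, 20.03 and 18.1. All 3 were lowest in WT. Ear1 shares 23.9% and Ear2 13.9% of their 100-base stretches with other genes, so their split of reads is uncertain. Alox15, a lipoxygenase rich in eosinophils, had 1 fragment in WT, 373 in HE and 289 in HO, with ratios of 320 (57.0 to 12662) and 263. Cebpe, a factor that granulocytes need to form specific granules, was at 1.63, 10.7 and 7.68 FPKM, with folds of 6.59 (4.75 to 9.36) and 4.70 (3.35 to 6.74). The summed FPKM of the 6 granule genes was 6.92 in WT, 176 in HE and 162 in HO.

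Surface receptors of eosinophils were less uniform in their folds. Siglecf, the lectin that marks mouse eosinophils, had 4 fragments in WT, 107 in HE and 73 in HO, with folds of 22.9 (8.70 to 85.7) and 16.6 (6.21 to 62.6). Il5ra, the receptor chain for interleukin 5, had 4, 44 and 44 fragments, with a fold of 9.43 (3.43 to 36.1) in HE. Ccr3, the eotaxin receptor that guides mature eosinophils, was at 1.012, 1.29 and 2.22 FPKM. Its fold was 1.279 in HE (0.930 to 1.77), an interval that includes 1, and 2.20 in HO (1.65 to 2.97). Csf2rb, the beta chain shared by the interleukin 5 and other receptors, was at 4.47, 6.84 and 6.64 FPKM, with folds of 1.53 and 1.49. The 6 granule genes were at least 12.9 times as high as in WT in both mutant libraries, while Ccr3 and Csf2rb were at most 2.20 times as high.

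Ms4a2, the beta chain of the high-affinity IgE receptor, lies at chr19:11592887-11601083 on the minus strand. It was at 0.105 FPKM in WT (6 fragments), 1.16 in HE (77) and 1.12 in HO (70). Both mutant libraries were above WT and close to each other, with folds of 11.0 (4.83 to 30.9) and 10.6 (4.64 to 29.9). On log2(FPKM + 1) its ratios were 0.97 and 0.94, just under the 2-fold line. Fcer1a, the IgE-binding alpha chain, was at 0.149, 1.87 and 0.540 FPKM (3, 44 and 12 fragments), with folds of 12.6 (4.03 to 63.3) in HE and 3.64 (0.982 to 20.1) in HO. The chains differed between the mutant libraries. The FPKM of Ms4a2 was 0.621 times that of Fcer1a in HE (0.423 to 0.921) and 2.07 times in HO (1.11 to 4.20). Fcer1g, the gamma chain that many myeloid cells use, was at 18.9, 32.1 and 34.3 FPKM, with folds of 1.70 and 1.82.

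Kit, the stem cell factor receptor, lies at chr5:75735576-75817382 on the plus strand. Its level was 0.959 FPKM in WT (173 fragments), 2.41 in HE (507) and 1.80 in HO (357). WT was the lowest and HE the highest. The fold was 2.51 in HE (2.11 to 3.00) and 1.88 in HO (1.56 to 2.26), and the log2(FPKM + 1) ratios were 0.80 and 0.52, under the 2-fold line. As Kit also serves blood progenitors and melanocytes, their markers were read beside it. In a list of 10 blood progenitor genes the summed FPKM was 69.9, 94.0 and 93.6, with Gfi1b and Myb called higher in both mutant libraries. The 4 melanocyte genes in the table, led by Pmel, summed to 0.589, 0.718 and 0.475 FPKM, and their part in the level of Kit was not tested.

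Cpa3 encodes the carboxypeptidase A of mast cell granules and lies at chr3:20269784-20296345 on the minus strand. It was at 0.293 FPKM in WT (9 fragments), 3.18 in HE (114) and 1.27 in HO (43). The order was WT, then HO, then HE. Its fold over WT was 10.9 in HE (5.52 to 24.4) and 4.35 in HO (2.09 to 10.1). On log2(FPKM + 1) the ratios were 1.69 and 0.81, so Cpa3 was called in HE and not in HO. A call in 1 library and not in the other is no test of their difference.

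Mcpt4, a chymase of connective tissue mast cells, lies at chr14:56297086-56299770 on the minus strand. It was at 0.268 FPKM in WT (6 fragments), 0.917 in HE (24) and 1.62 in HO (40). WT was the lowest, as for Cpa3, but here HO was above HE. The folds were 3.43 (1.37 to 10.3) and 6.06 (2.56 to 17.5). Cma1, the neighbouring chymase at chr14:56178908-56182132 on the same strand, was at 0.725 FPKM in WT (16 fragments), 1.20 in HE (31) and 0.660 in HO (16). Its folds were 1.66 (0.881 to 3.25) and 0.910 (0.426 to 1.94), so no difference from WT was detectable at this depth. Tpsb2, a tryptase at chr17:25585279-25588072 on the plus strand, was at 0.496 FPKM in WT (16 fragments), 0.478 in HE (18) and 0.536 in HO (19). Its folds were 0.964 (0.464 to 2.02) and 1.08 (0.526 to 2.25), with intervals that reach no higher than 2.02 and 2.25. The sign of its small difference changed with the scaling of the libraries.

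Within single libraries the mast cell members thus stood in different proportion. The FPKM of Cpa3 was 0.591 times that of Tpsb2 in WT (0.230 to 1.42), 6.65 times in HE (4.03 to 11.6) and 2.38 times in HO (1.36 to 4.32). The WT interval overlaps that of HO at its edge and not that of HE. Against Cma1, Cpa3 was at 0.404 in WT (0.157 to 0.971), 2.64 in HE (1.76 to 4.07) and 1.93 in HO (1.07 to 3.67). Mcpt4 was at 0.369 of Cma1 in WT (0.118 to 0.993), 0.762 in HE (0.428 to 1.34) and 2.46 in HO (1.35 to 4.70). These ratios do not depend on how the libraries were scaled to each other.

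A wider list of 32 mast cell genes had 29 in the table, of which 15 reached the mean. In HE 5 of the 15 were called higher (Alox5, Cpa3, Gata1, Hdc and Srgn) and in HO 3 (Alox5, Gata1 and Hdc), none lower, with a median log2 ratio of 0.41 in each. Over all genes 4.88% and 4.05% were called higher, with medians of 0.058 and 0.0070. Cpa3, Gata1 and Hdc reached the mean only through the mutant libraries, so these counts are a description. By the fragment rule, 11 of 25 mast cell genes were higher in HE and 7 of 24 in HO, beside 10.6% and 9.19% of all genes. Hdc, the enzyme that makes histamine in mast cells and basophils, was at 0.410, 4.20 and 3.43 FPKM, with folds of 10.2 (7.73 to 13.8) and 8.36 (6.29 to 11.3). Alox5, the first enzyme of leukotriene synthesis in many myeloid cells, was at 1.54, 4.90 and 5.90 FPKM, with folds of 3.18 (2.61 to 3.90) and 3.83 (3.15 to 4.68). Srgn, the core protein of serglycin that packs granule proteases, was at 17.2, 36.9 and 29.8 FPKM, with folds of 2.14 and 1.73. Each of the called genes is also active in other blood cells. Slc18a2, which loads amines into granules, had folds of 1.75 and 1.32, and Hpgds, a prostaglandin D synthase, 1.18 and 1.68. Ndst2, which sulfates granule heparin, had folds of 0.877 and 0.847, and Rab27b, a GTPase of granule release, 0.952 and 1.23. Slc45a3 was lower than WT, at 5.66, 3.44 and 3.20 FPKM with folds of 0.607 and 0.566, though 13.5% of its exon bases overlap another gene on the same strand.

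Several other mast cell genes had few fragments. Mcpt2, a protease of mucosal mast cells, had 4 fragments in WT and 0 in both mutant libraries. Tpsab1, the other tryptase of this cell, had 1, 0 and 2 fragments, and Tpsg1 had 0, 3 and 0. The mast cell receptors Mrgprb2 and Mrgprb1 had 3, 2 and 0 fragments and 4, 13 and 7 fragments. The 4 mast cell protease members summed to 1.78 FPKM in WT, 5.78 in HE and 4.09 in HO, compared with 4.03, 97.1 and 81.4 for Prg2 and Epx. Mcpt1, Mcpt9 and Cma2 were not analysed here. In HE, 114 of the 187 fragments of these 4 genes were of Cpa3.

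**Figure D3:**
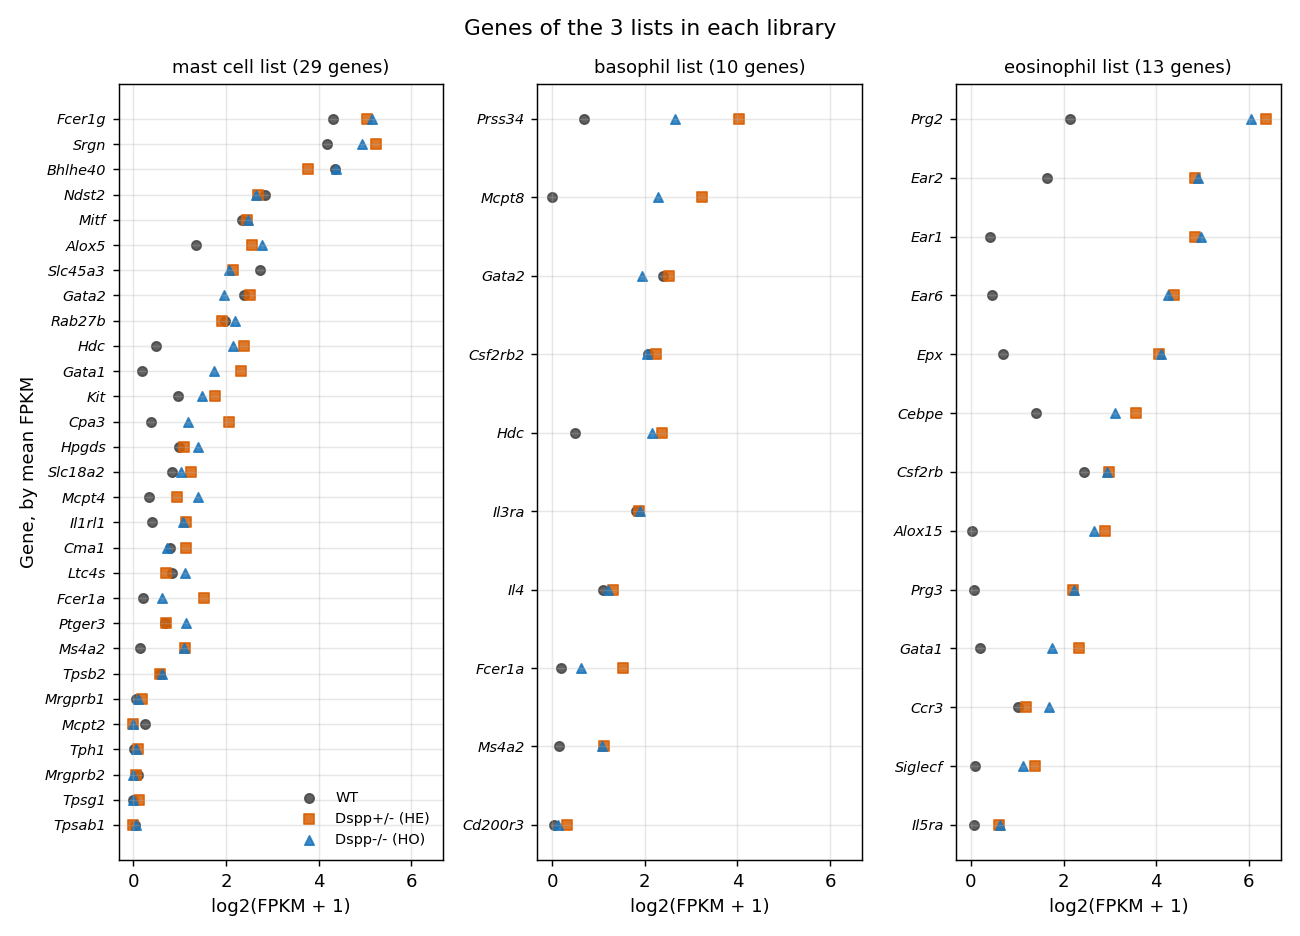
Level of each gene in log2(FPKM + 1), genes ordered by mean FPKM, for the lists of mast cell (29 genes), basophil (10) and eosinophil (13) genes in the table, with 1 point for each library. Most eosinophil genes have the WT circle far to the left of both mutant points, and most mast cell genes have the 3 points close together. This scale understates the change of low genes, such as Ms4a2 and Fcer1a, whose folds in HE were 11.0 and 12.6.

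Proteases of basophils were far higher in both mutant libraries than in WT. Mcpt8, a serine protease used as the marker of mouse basophils, was at 0 FPKM in WT, 8.36 in HE and 3.87 in HO (0, 197 and 86 fragments). With the floor of 3 fragments put in place of 0 in WT, the ratio was 56.3 in HE and 26.1 in HO. The counting interval of the ratio to 0 fragments reaches down to 45.4 and 20.8, so these are not lower bounds. Prss34, a tryptase-like protease found chiefly in basophils, was at 0.607, 15.4 and 5.30 FPKM (15, 445 and 144 fragments), with folds of 25.4 (15.3 to 45.8) and 8.73 (5.12 to 16.0). Cd200r3, an activating receptor of basophils and mast cells, had 3, 36 and 13 fragments, with ratios of 10.3 (3.25 to 52.2) and 3.94 (1.08 to 21.6). Of 11 basophil genes 10 were in the table and 7 reached the mean, and Hdc, Mcpt8 and Prss34 were called higher in each mutant library, with medians of 0.22 and 0.12 on the log2(FPKM + 1) scale. These 3 also reached the mean only through the mutant libraries. Over all genes 4.88% were called higher in HE and 4.05% in HO, with medians of 0.058 and 0.0070. Among the rest, Il4 was at 1.13, 1.48 and 1.32 FPKM, Il3ra at 2.53, 2.67 and 2.73, and Csf2rb2 at 3.20, 3.72 and 3.16. In the 2 mutant libraries the FPKM of Cpa3 was 0.381 times (0.300 to 0.482) and 0.329 times (0.223 to 0.480) that of Mcpt8, intervals that overlap.

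The transcription factors of these lineages did not move alike. Gata1, which erythroid cells, megakaryocytes, eosinophils and mast cells all use, was at 0.142, 4.01 and 2.36 FPKM, with folds of 28.3 (13.5 to 71.1) and 16.6 (7.84 to 42.2). The erythroid genes were higher in the same libraries, and their part in the level of Gata1 was not tested. Gata2, a factor of progenitors, mast cells and basophils, was at 4.27, 4.74 and 2.86 FPKM, with folds of 1.11 (0.983 to 1.26) and 0.671 (0.582 to 0.774). Mitf, which mast cells share with melanocytes and osteoclasts, was at 4.05, 4.48 and 4.52 FPKM, with folds of 1.11 and 1.12 whose intervals include 1. Bhlhe40, which many cells express, was at 19.6, 12.7 and 19.6 FPKM.

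Growth factors and attractants of these cells were read beside them. Kitl, which encodes stem cell factor, the ligand of KIT, was at 13.2 FPKM in WT and 21.9 in both mutant libraries, a fold of 1.66 in each (1.56 to 1.76). Il33, an alarmin that acts on mast cells, basophils and other cells, was at 1.47, 3.51 and 4.42 FPKM, with folds of 2.38 (1.85 to 3.09) and 3.00 (2.35 to 3.87). On log2(FPKM + 1) it was called in HO, the only call among 3 ligands compared, where 4.05% of all genes were called higher. By the fragment rule it was higher in both mutant libraries, 1 of 5 ligands compared in each, beside 10.6% and 9.19% of all genes. Il1rl1, the receptor for the product of Il33, was at 0.330, 1.20 and 1.12 FPKM, with folds of 3.63 (2.62 to 5.13) and 3.38 (2.43 to 4.79). Ccl11, the eotaxin that CCR3 binds, was at 6.26, 8.06 and 10.4 FPKM, with folds of 1.29 (1.03 to 1.61) and 1.66 (1.34 to 2.06). Il5, the growth factor of eosinophils, had 0, 0 and 3 fragments, and Ccl24 had 4, 9 and 7, too few to compare. Il3 and Csf2 were not analysed here.

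Compared directly, Cpa3 and 4 basophil genes were lower in HO than in HE, while the eosinophil granule genes differed by less. No member was called by the main rule, where 0.852% of all genes were called higher and 0.798% lower in HO against HE. By fragments, Cpa3 was lower, 1 of 8 members, where 4.33% of all genes were. The FPKM of Cpa3 in HO was 0.400 of that in HE (0.275 to 0.573), that of Kit 0.747 (0.651 to 0.857) and that of Cma1 0.548 (0.280 to 1.03). Mcpt4 went the other way, at 1.77 (1.04 to 3.07). Prg2 was at 0.802 (0.744 to 0.864), while for Epx (1.03, 0.942 to 1.13), Ms4a2 (0.965, 0.688 to 1.35) and Tpsb2 (1.12, 0.556 to 2.26) the interval included 1. Among basophil genes Prss34 was at 0.343 (0.283 to 0.415), Mcpt8 at 0.463 (0.355 to 0.600), Cd200r3 at 0.383 (0.186 to 0.740) and Fcer1a at 0.289 (0.139 to 0.557), all lower by the fragment rule, 4 of 10 basophil genes in the table. By the main rule 1 of 7, Prss34, was called lower. Fcer1a is also on the mast cell list, and Cd200r3 is a receptor of mast cells too. The other basophil genes were not called by either rule. Of these, Hdc at 0.816 (0.724 to 0.920), Csf2rb2 at 0.849 (0.733 to 0.983) and Gata2 at 0.604 (0.528 to 0.691) had intervals below 1. Those of Ms4a2 at 0.965, Il4 at 0.888 and Il3ra at 1.02 included 1. Of 13 eosinophil genes, none was called between the mutant libraries by either rule, with 7 ratios below 1 and 6 above. Outside the granule genes, Gata1 was at 0.588 (0.470 to 0.733), Cebpe at 0.714 (0.597 to 0.853), Siglecf at 0.724 (0.530 to 0.984) and Alox15 at 0.822 (0.703 to 0.961). Ccr3 went the other way, at 1.72 (1.33 to 2.23). Genes of the neutrophil primary granule, which promyelocytes make, were lower in HO in the same comparison, with Mpo at 0.351, Elane at 0.448, Prtn3 at 0.358 and Ctsg at 0.278, and the other 6 neutrophil granule genes were above 1.

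**Figure D4:**
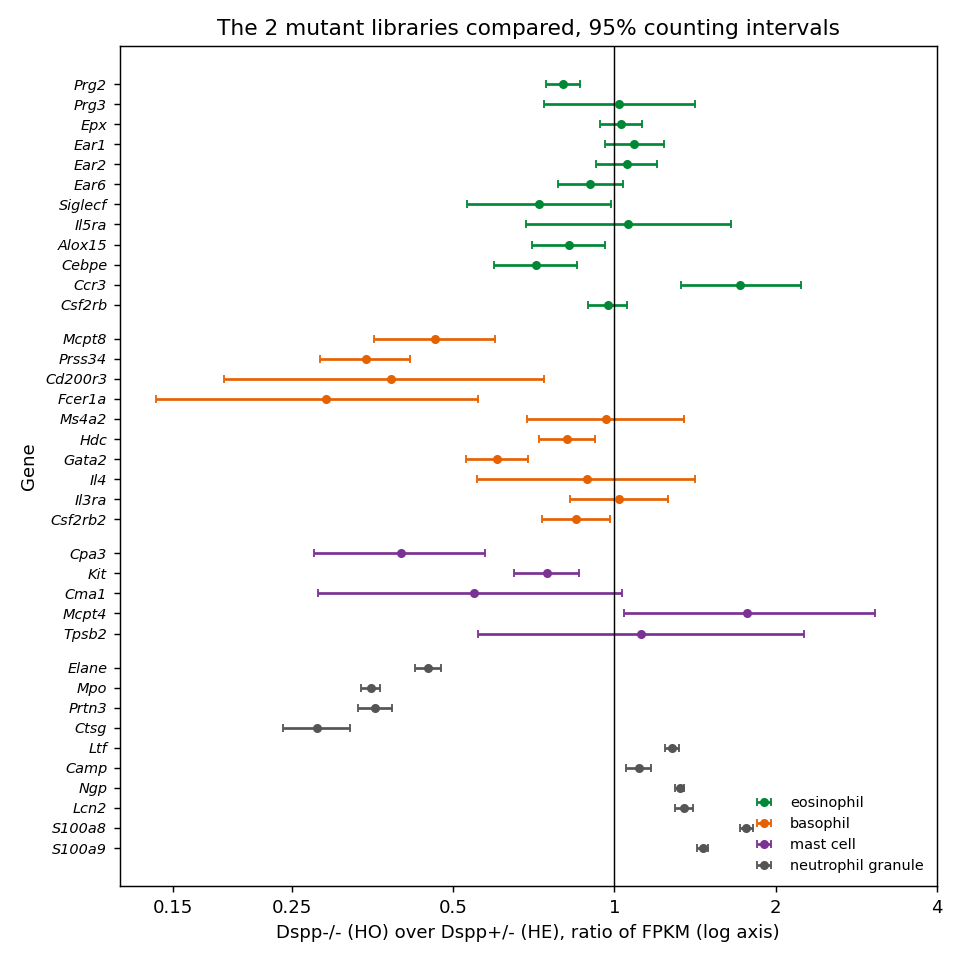
Ratio of FPKM in HO to that in HE (log axis) for eosinophil, basophil, mast cell and neutrophil granule genes, where bars are 95% counting intervals and the line marks 1. Mcpt8, Prss34, Cd200r3 and Fcer1a lie between 0.289 and 0.463, and the 6 eosinophil granule genes lie between 0.802 (Prg2) and 1.09 (Ear1). Gata1, also on the eosinophil list and at 0.588, is not drawn. Fcer1a, Ms4a2, Hdc and Gata2, drawn with the basophil genes, are also on the mast cell list.

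Several members lie in groups of related genes, which allows neighbours to be read side by side. The chymase group on chromosome 14 held 9 genes of the table between Cma1 and Gzmb. In it Mcpt8 and Ctsg, which encodes cathepsin G of neutrophils and was at 1.29, 38.3 and 10.7 FPKM, were both higher in HE than in HO and higher in each than in WT. Cma1, Mcpt2 and Gzmb (5, 5 and 4 fragments) in the same group did not show this order beyond counting error. Mcpt4, also in the group, was higher in HO than in HE (6, 24 and 40 fragments), by 1.77 times (1.04 to 3.07). On chromosome 17 Tpsb2 lies 67.9 kb from Prss34, and their folds in HE were 0.964 and 25.4. On chromosome 2 Prg2 and Prg3 start 7.75 kb apart and were both higher in each mutant library. On chromosome 11 Epx starts 70.4 kb from Mpo, its neutrophil relative, which was at 3.23, 109 and 38.3 FPKM. The FPKM of Epx was 0.190 times that of Mpo in WT (0.128 to 0.273), 0.143 times in HE (0.134 to 0.153) and 0.420 times in HO (0.390 to 0.452). Lpo, another peroxidase of this group, had 0, 14 and 8 fragments.

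Ordered by FPKM, a level per exon length, the members ran Prg2, Kit, Cma1, Epx, Tpsb2, Cpa3, Mcpt4 and Ms4a2 in WT. Only Prg2 stood above its next member there beyond counting error, by 3.57 times (2.60 to 4.83), and the other 6 neighbouring pairs had intervals that included 1. In HE the order was Prg2, Epx, Cpa3, Kit, Cma1, Ms4a2, Mcpt4 and Tpsb2, with 4 of 7 pairs apart beyond counting error, down to Kit over Cma1 at 2.001 times (1.39 to 2.98). In HO it was Prg2, Epx, Kit, Mcpt4, Cpa3, Ms4a2, Cma1 and Tpsb2, with 2 of 7 pairs apart. Epx thus moved from the fourth place in WT to the second in both mutant libraries, and Tpsb2 was last in both.

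The genes most like Cpa3 and Prg2 were sought by the distance between pairs of log2(FPKM + 1) ratios to WT, over 3 libraries and among genes that averaged 5 FPKM or more. For Cpa3, 7133 genes were searched and the nearest were Gm10123 (distance 0.207), Cd79a (0.298), Tuba4a (0.306), Lyl1 (0.316) and Cd52 (0.319). For Prg2, 7132 genes were searched and the nearest included Ear6 (0.296), Hemgn (0.385), Ear1 (0.664) and Car1 (0.716). Ear6 and Ear1 are eosinophil ribonucleases, and Hemgn and Car1 are genes of the erythroid lineage. This scale understates the change of low genes, so genes near by this distance can differ in fold. Tuba4a went from 45.8 FPKM in WT to 123 in HE, and Cpa3 from 0.293 to 3.18. Hemgn went from 0.059 FPKM in WT to 14.5 in HE, and Prg2 from 3.42 to 81.5. With 3 libraries, many genes of unlike cells share such a pattern on this scale.

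Markers of other cells were counted beside these results. All 10 neutrophil granule genes were called higher in each mutant library, with summed FPKM of 611 in WT, 2739 in HE and 3588 in HO. S100a9, the most abundant of them, was at 232, 916 and 1339 FPKM. All 8 erythroid genes were called higher in each as well, with the globin Hbb-bs at 425, 1794 and 1886 FPKM. Beside both counts, 4.88% of all genes compared were called higher in HE and 4.05% in HO. Endothelial genes were near level, at a summed 110, 128 and 125 FPKM for 5 genes, with Cdh5 at 48.9, 56.2 and 52.8. The 7 fibroblast genes, led by the collagen Col3a1, summed to 1480, 704 and 1215, and the osteoblast genes were led by Col1a1, the main collagen of bone, at 6675, 1719 and 3610. Chondrocyte genes, which define the cartilage of the labelled tissue, summed to 1318, 432 and 582 for 5 genes, led by the cartilage collagen Col2a1, and 1 of them, Matn1, had 2, 0 and 3 fragments. The members that stood above WT in both mutant libraries thus stood beside higher neutrophil and erythroid genes and lower osteoblast and chondrocyte genes, and the part of the dissected tissue's makeup in their levels was not tested.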

How the data were processed

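RNA from mandibular condyles of WT, Dspp+/- and Dspp-/- mice was sequenced by CapitalBio Technology (poly(A) selection, NEB Next Ultra kit without strand marking, paired reads of 150 bases), 1 library per genotype. The authors deposited 1 table of 26970 genes without a named unit, and the unit FPKM was inferred from its values, which are whole fragments divided by exon length. The submitters' processing notes name FastQC 0.11.5, HISAT2 2.1.0, StringTie 1.3.3b, DESeq 1.28.0 and the human build hg38, although the table holds mouse genes. How each tool was used is not given in the sources used here. The sample labels mention triplicates, while the table has 1 column per genotype.

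From the FPKM, fragments were recovered with merged exon lengths of GENCODE M21 (26652 genes matched, 26385 whole in all 3 libraries), a step tested on simulated data. For the count of whole genes the tolerance grew with the number of fragments, so genes with many fragments pass it easily. Values were compared as log2 ratios with a pseudocount of 1 FPKM and called at 2-fold in genes averaging 1 FPKM or more, and folds carry 95% Clopper-Pearson intervals with a floor of 3 fragments. The Kruskal-Wallis test of the study cannot be used with 1 library per genotype. The 8 members and the gene lists, written by hand, were chosen with earlier results of these data known. Named genes are the members, list genes averaging 1 FPKM or more, markers of mucosal mast cells, basophils and eosinophils whatever their level, genes in the members' gene groups, and the 5 genes nearest in pattern to Cpa3 and Prg2, apart from genes that are not reported here. The most abundant gene in WT of each other list was named too. Fcer1a, Cd200r3, Il1rl1, Mrgprb1, Mrgprb2, Il5, Ccl24, Gfi1b, Myb, Elane, Prtn3 and Matn1 were named after their values were seen. Each member had no exon overlap with another gene, and at most 0.406% of its 100-base stretches occurred in another. Alternatives were pseudocounts of 0.1 and 5, no filter, a minimum mean of 5 FPKM, thresholds of 1.5-fold and 4-fold, 4 other scalings, and, chosen after seeing the data, the fragment rule and rescaling to equal summed FPKM. Tools were matplotlib 3.10.9 for figures and scipy 1.17.1, pandas 2.3.3 and numpy 2.4.6 under Python 3.11.15. Promoters came from RefSeq on GRCm38.p6.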

Additional observations from a re-analysis of the deposited data

How the results depend on the processing

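With 1 library per genotype, no result has a replicate check, and depth limits Ms4a2, Mcpt4, Cpa3, Cma1 and Tpsb2 most, which had 6, 6, 9, 16 and 16 fragments in WT. No paired analysis was possible because each genotype has a single library. No called value reversed its direction under any alternative. Prg2, Epx, Cpa3, Ms4a2, Kit and Mcpt4 were above WT in all 12 settings in both mutant libraries, while the ratio of Tpsb2 in HE ran from -0.091 to 0.023 on the log2 scale. Rescaling to equal summed FPKM shifted the median of all genes by -0.18 in HE and -0.15 in HO on the log2 scale and moved no count of members called, while the mast cell genes called higher in HE went from 5 to 4.

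With a pseudocount of 0.1 FPKM, 1 member was called lower in HO than in HE, as with the 1.5-fold threshold, against 0 in the report. With a pseudocount of 5 FPKM, the mast cell genes called higher became 0 in both HE and HO, and the basophil genes called higher in HO became 0. With a minimum mean of 5 FPKM, the mast cell genes called higher became 1 in HE and 0 in HO, and the basophil genes 1 in each, as fewer genes were compared. At 1.5-fold, 6 mast cell genes were called higher in HO and 1 lower in each mutant library. At 4-fold, 1 mast cell gene was called higher in HE and 0 in HO, and 1 basophil gene in HO. By fragments without a pseudocount, the members called higher became 6 in HE and 5 in HO, with 1 lower in HO than in HE, the mast cell genes 11 and 7, and the basophil genes 6 and 5. The counts of eosinophil genes called stayed within 1.5 times the reported ones in all of these. The other 194 counts under the alternatives stayed within 1.5 times. Among the other values, chiefly ratios of single members and medians of lists, 75 moved, most of them under another pseudocount or none, and 429 did not.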
